A study of Homo sapiens and Mus musculus with 74 samples.

Results

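The small proteins CSTB, CISD1, CYCS and VAMP8 were followed here in mouse tissue together with chosen relatives of CSTB, CISD1 and VAMP8. CYCS has no relative among the genes chosen. The members were 10 mouse genes picked by symbol: Cstb and Cst3, Cisd1, Cisd2 and Cisd3, Cycs, and Vamp8, Vamp2, Vamp3 and Vamp7. Each was read from its transcript with the longest annotated protein in GENCODE M21, the gene catalogue of the GRCm38 mouse genome. Of these 10 genes, 9 had a row in the deposited table, out of 22484 coding genes there, and Vamp7 was not analysed here. The 9 genes have 25 transcripts in the table, of which 15 code for protein. The proteins of the chosen transcripts ran from 98 residues in Cstb to 163 residues in Vamp2.

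The series asks what is lost when the ribosome lacks RPL41, its smallest protein, which sits at the contact between the ribosomal subunits. Kidney and brain came from Rpl41 KO mice, whose whole Rpl41 coding sequence had been deleted by CRISPR-Cas9 in C57BL/6J zygotes, and from WT mice with both copies of the gene. The study's methods give males of 10 weeks for Ribo-seq, the labels name no other allele or treatment, and each group held 3 libraries. RNA-seq measured poly(A) RNA and Ribo-seq measured ribosome-protected fragments (RPF), both in both tissues, while disome-seq measured fragments under 2 stacked ribosomes in kidney only. The deletion is present in every cell of the animal, so a change in a tissue can arise in any of its cell types.

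CSTB (cystatin B) is a cytosolic inhibitor of lysosomal cysteine proteases, the cathepsins, and CST3 (cystatin C) is its secreted relative, which is abundant in brain and cerebrospinal fluid. The CISD proteins carry a 2Fe-2S cluster in a so-called CDGSH domain. CISD1 (mitoNEET) sits in the outer mitochondrial membrane, CISD2 sits mainly in the endoplasmic reticulum, and CISD3 lies inside mitochondria. CYCS is cytochrome c, the haem protein that carries electrons to cytochrome oxidase and that starts the caspase cascade once it leaks into the cytosol. The VAMP proteins are SNAREs, helical membrane proteins that zip up with partners on the opposite membrane to fuse vesicles. VAMP8 works in endosomes, in lysosome fusion and in exocytosis from epithelial cells, VAMP2 is the main SNARE of synaptic vesicles, and VAMP3 is its counterpart in recycling endosomes of other cells.

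The coding sequences show how far the relatives can be told apart by short reads, and those that matter for this are given 5′ to 3′ from GENCODE M21 on GRCm38. In the CISD windows, capitals mark the 5 codons at the place of the CDGSH motif. They code for it in Cisd2 and in the first window of Cisd3, while the fourth codon stands for alanine in Cisd1 and for threonine in the second window of Cisd3, in place of serine. Positions count from the first base of the start codon. Cisd1 (chr10:71330480-71344954, minus strand) is shown from coding base 199 to 294, Cisd2 (chr3:135406412-135423925, minus strand) from 280 to 375, and Cisd3 (chr11:97685826-97688621, plus strand), which has such a stretch at 2 places, from 193 to 288 and from 307 to 402.
Cisd1: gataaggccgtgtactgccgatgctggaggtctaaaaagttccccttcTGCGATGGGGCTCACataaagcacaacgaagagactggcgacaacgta
Cisd2: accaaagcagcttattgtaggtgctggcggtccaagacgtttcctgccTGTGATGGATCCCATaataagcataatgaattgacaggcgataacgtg
Cisd3, first window: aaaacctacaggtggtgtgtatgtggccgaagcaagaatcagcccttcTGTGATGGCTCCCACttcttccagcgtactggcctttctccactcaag
Cisd3, second window: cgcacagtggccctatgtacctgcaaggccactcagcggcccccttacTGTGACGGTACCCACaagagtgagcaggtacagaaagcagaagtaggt
The motif codons differ between the genes, and the longest run of bases shared by Cisd1 and Cisd2 was 9, although 53.7% of 108 aligned residues were identical. Cisd1 and Cisd3 shared 32.0% of residues and at most 8 bases in a row.

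Vamp2 and Vamp3 were the most alike, with 75.7% of residues identical over 103 aligned. Their longest shared run, in capitals, was 17 bases, at coding bases 226 to 242 of the 116-residue Vamp2 (chr11:69088490-69092384, plus strand) and 187 to 203 of Vamp3 (chr4:151047300-151057963, minus strand).
Vamp2: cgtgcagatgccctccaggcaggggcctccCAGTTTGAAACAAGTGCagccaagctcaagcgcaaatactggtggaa
Vamp3: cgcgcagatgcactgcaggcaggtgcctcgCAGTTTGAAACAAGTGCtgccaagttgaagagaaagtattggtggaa
Vamp8 (chr6:72385223-72390703, minus strand) shared 37.5% of residues with Vamp2 and 34.0% with Vamp3, and Cstb shared 27.1% with Cst3 (chr2:148871722-148875692, minus strand). No pair compared shared a run of 28 bases, a length within the range of the Ribo-seq fragments.

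Copies elsewhere in the genome are another matter. Of all 28-base words in the coding sequence of Cstb, Cst3, Vamp8 and Vamp2, 0 occurred at another place in GRCm38, so an exact read of that length has 1 source. For Cstb (chr10:78425669-78427622, plus strand) the whole coding sequence without its stop codon is shown, with the start codon in capitals.
Cstb: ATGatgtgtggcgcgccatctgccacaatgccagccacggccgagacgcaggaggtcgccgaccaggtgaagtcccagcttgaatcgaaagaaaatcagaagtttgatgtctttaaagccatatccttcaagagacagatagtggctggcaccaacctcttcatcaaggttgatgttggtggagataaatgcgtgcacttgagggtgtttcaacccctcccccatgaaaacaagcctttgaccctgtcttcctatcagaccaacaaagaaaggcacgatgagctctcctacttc
For Cycs (chr6:50562563-50566538, minus strand), all 288 words occurred elsewhere, at 23 other loci. Coding bases 1 to 117 are shown, with the codons that bind haem in capitals.
Cycs: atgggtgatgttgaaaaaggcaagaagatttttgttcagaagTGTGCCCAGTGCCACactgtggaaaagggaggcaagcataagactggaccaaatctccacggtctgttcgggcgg
Of the 19 annotated genes in the table that hold some of these words, the pseudogene Gm10053 holds all 288. Its counts ran from 982 to 2592 in kidney Ribo-seq, where Cycs had 1013 to 2663. Since reads with several alignments were kept, a read can enter both rows there. Kidney RNA-seq differed, with 1 to 6 counts for Gm10053 and 437 to 1337 for Cycs, while brain RNA-seq had 5215 to 8348 for Gm10053. Reads of Cycs and its copies were thus not counted alike in all sets, and the reason was not tested. Between these extremes, 238 of 384 words of Cisd3 (62.0%), 55 of 297 of Cisd1 (18.5%), 39 of 282 of Vamp3 (13.8%) and 51 of 378 of Cisd2 (13.5%) occurred at 1 other locus each. Values for Cycs and Cisd3 are therefore uncertain, since reads from copies cannot be separated from them.

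Library totals, as sums of counts over transcripts, lay between 11036643 and 42452425 for Ribo-seq of kidney and between 9498663 and 35881929 for Ribo-seq of brain. For RNA-seq they lay between 44998381 and 55077048 in kidney and between 84433838 and 123745890 in brain, and for disome-seq between 1187636 and 3018963. The targeted gene, Rpl41, had 3695 to 7502 counts in WT and 3 to 8 in KO kidney RNA-seq, and its counts followed the labels in all 30 libraries. The 7 kidney markers summed to 3820 to 4496 CPM (counts per 1000000 counts of the library, scaled with edgeR's TMM factor) in WT and 5274 to 6117 in KO kidney Ribo-seq, and to at most 11.0 in brain Ribo-seq, where the 7 brain markers summed to 1139 to 1433. The part of the higher kidney marker level in the Ribo-seq values of KO kidney was not tested. In kidney RNA-seq, KO libraries 2 and 3 stood apart from the other 4. Mitochondrial rRNA took 1.76% and 1.67% of their counts, against 0.436% to 0.962% in the others, and they had the lowest numbers of transcripts with a count, 83287 and 86071 against 91222 to 93091. They also had fewer reads on the short 5′ transcript of Cst3, 26.6% and 31.1% of those on its full transcript, against 50.5% to 65.0%. What these differences contribute to the RNA values below was not tested, and values without these libraries are given beside the RNA results of the members.

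In WT kidney, Ribo-seq levels per kb of coding sequence put Cycs first and the SNARE genes Vamp3 and Vamp2 last. Cycs stood at 273 ± 41.0 CPM per kb (SD, n = 3), followed by Cst3 at 164 ± 4.84 and Cisd1 at 160 ± 14.7. Vamp8 at 94.3 ± 12.6 and Cstb at 89.1 ± 3.94 came next, above Cisd3 at 53.4 ± 8.12 and Cisd2 at 36.1 ± 2.90. Vamp3 at 24.3 ± 2.29 and Vamp2 at 15.0 ± 1.05 (19.1 ± 1.21 from its 116-residue transcript) were lowest. The libraries of Cst3 and Cisd1 overlapped, as did those of Vamp8 and Cstb, and the other neighbours in this order did not overlap.

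Brain had another order. Cst3 led with 665 ± 159 CPM per kb (SD, n = 3), and the 163-residue transcript of Vamp2 followed at 194 ± 36.9, overlapping with Cycs at 149 ± 27.4. The 116-residue transcript of Vamp2, with nearly the same counts over a shorter coding sequence, was at 271 ± 53.3, so the level and the overlap depend on the transcript. Cisd1 was at 70.2 ± 10.5, Cstb at 37.6 ± 7.25 and Cisd2 at 23.6 ± 1.58. Cisd3 at 14.8 ± 2.72 overlapped with Vamp3 at 13.7 ± 1.30, and Vamp8 was last at 7.09 ± 0.489. So Vamp8 and Vamp2 changed places between the organs, and Cst3 and Cstb, at 164 and 89.1 in kidney, were at 665 and 37.6 in brain. Each tissue was scaled on its own, so levels are compared within a tissue.

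**Figure D1:**
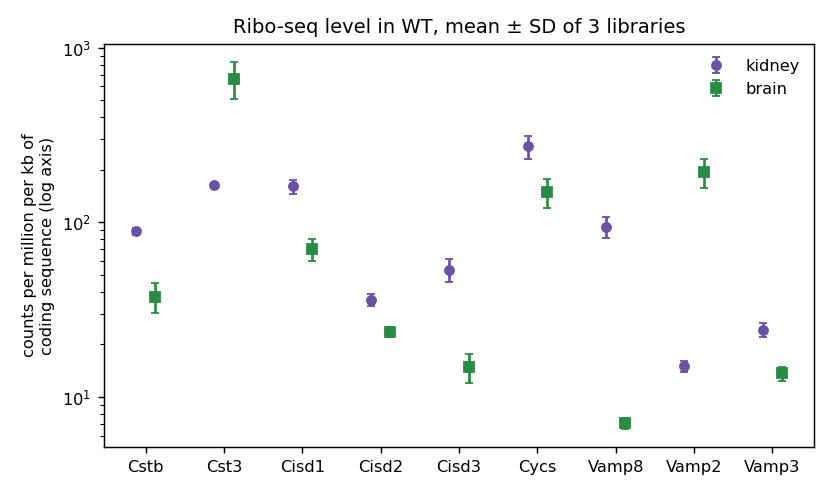
Ribo-seq level of the 9 genes in WT kidney (circles) and WT brain (squares), in CPM per kb of coding sequence on a log axis, with points for the mean and bars for the SD of 3 libraries. Cycs is highest in kidney at 273 and Cst3 highest in brain at 665, while Vamp8 runs from 94.3 in kidney to 7.09 in brain.

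Kidney Ribo-seq asked whether ribosome footprints on these genes changed in Rpl41 KO kidney. All 9 genes had a log2 fold change below 0 (KO against WT), with a median of -0.21. The changes with the lowest adjusted p were in Cstb and Vamp8, followed by Cisd1. Cycs, which the study names along with them for raised protein in RPL41-deficient HEK293T cells, had an adjusted p of 0.573. That was above the adjusted p of every relative but Cst3. By edgeR's quasi-likelihood test, 0 of 9 members passed an adjusted p of 0.05, where 7.76% of all transcripts tested passed. Of the 13454 coding genes tested by 1 transcript each, 1329 passed. An unadjusted p under 0.05 was found for 3 of 9 members and for 29.0% of these coding genes. Across the 13454 genes the median log2 fold change was -0.02, and across the 999 of them that encode 60 to 150 residues it was -0.26. Of those 999 short-protein genes, 113 fell and 6 rose. The members' median lay between these medians.

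Cstb was the member whose KO libraries lay closest together. It had 25.1, 26.1 and 27.4 CPM in the WT libraries and 20.6, 21.2 and 20.8 in the KO libraries. Every KO library was below every WT library, by a log2 fold change of -0.32 ± 0.10 (SE), with an adjusted p of 0.0594. It passed under 2 of 12 alternatives, with adjusted p of 0.0441 on library totals alone and 0.0442 with at least 10 counts in every library.
Its relative Cst3 had 67.8, 71.0 and 67.3 CPM in WT and 70.2, 67.8 and 65.6 in KO. These overlapped, and the log2 fold change was -0.02 ± 0.10 with an adjusted p of 0.934.

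Vamp8 had 26.6, 26.2 and 33.0 CPM in WT and 23.1, 23.0 and 20.6 in KO kidney Ribo-seq. All KO libraries were lower, with a log2 fold change of -0.36 ± 0.12 and an adjusted p of 0.0748, or 0.0493 on library totals alone. Vamp2 had 6.83, 7.33 and 7.86 CPM against 6.91, 6.20 and 5.97, and its groups overlapped. Vamp3 overlapped too, with 7.74, 6.72 and 8.08 CPM in WT against 7.70, 6.02 and 6.87 in KO. The log2 fold changes of Vamp2 and Vamp3 were -0.22 ± 0.12 and -0.16 ± 0.13, with adjusted p of 0.285 and 0.466.

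Cisd1 had 47.6, 51.2 and 57.1 CPM in WT and 44.2, 43.0 and 41.2 in KO kidney Ribo-seq, again with no overlap. Its log2 fold change was -0.28 ± 0.11, with an adjusted p of 0.126. Cisd2 had 13.7, 14.3 and 15.9 CPM against 11.7, 12.1 and 13.8, a log2 fold change of -0.21 ± 0.11. The KO libraries of Cisd2 overlapped the WT ones by 1 library, and those of Cisd3 were spread through the WT range, at 22.8, 18.2 and 17.6 CPM against 19.7, 20.4 and 25.8. Adjusted p was 0.257 for Cisd2 and 0.420 for Cisd3. Cycs varied most between replicates of 1 group, with 73.6, 84.7 and 99.4 CPM in WT and 100.0, 61.4 and 68.8 in KO, and its log2 fold change of -0.17 ± 0.17 had an adjusted p of 0.573.

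In all, Cstb, Cisd1 and Vamp8 were lower in every KO library of kidney Ribo-seq, 3 of 9 members, against 16% of coding genes tested. No member was higher in every KO library, against 17% of genes. Every member kept a negative log2 fold change under all 12 alternatives except Cst3, whose sign turned under 4 of them.

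**Figure D2:**
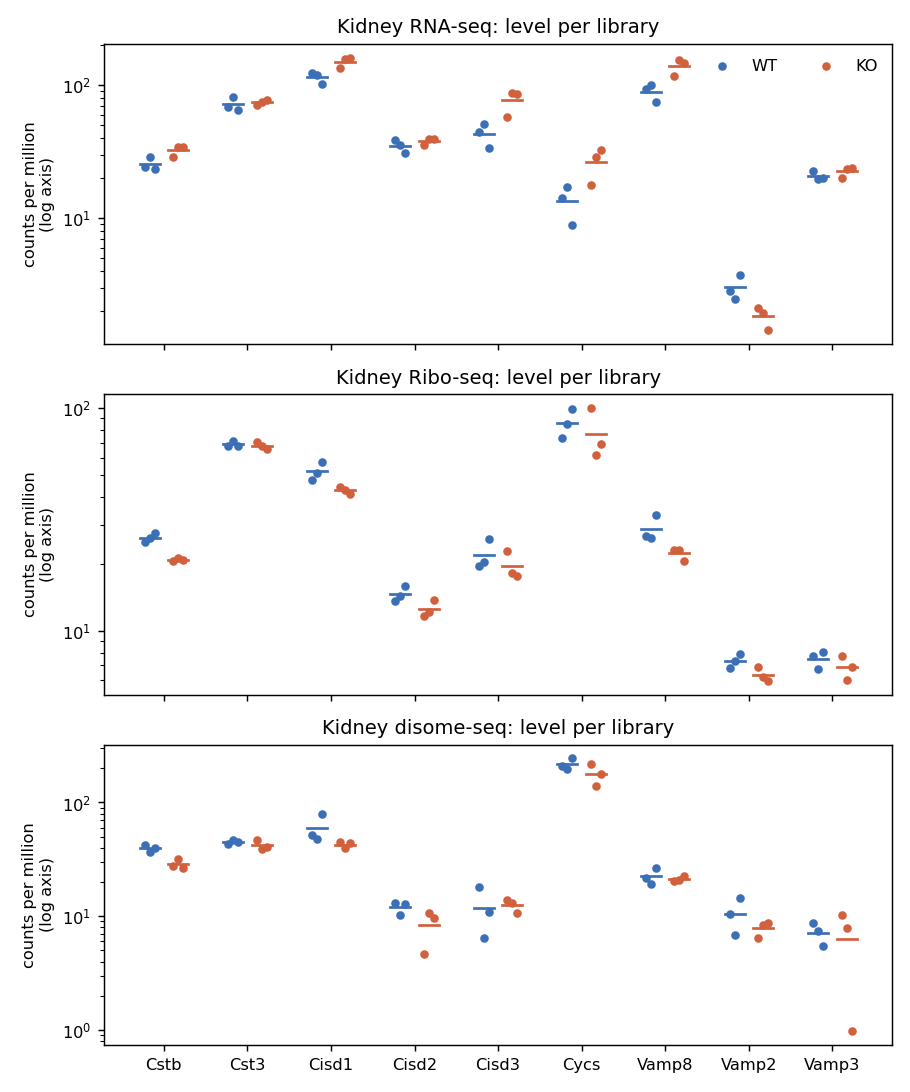
Level of the 9 genes in each kidney library, in CPM on a log axis, for RNA-seq (top), Ribo-seq (middle) and disome-seq (bottom); points are libraries, lines are means of 3, blue is WT and orange is KO. In Ribo-seq the KO points of Cstb lie between 20.6 and 21.2, below WT points of 25.1 to 27.4, while those of Cst3 overlap; in RNA-seq the KO points of Cycs and Cisd3 lie above the WT points.

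Disome-seq asked the same of stacked ribosomes in kidney, at much lower depth. Members were covered by 1 to 600 counts per library, so only large changes could be seen for the rarer ones. Here 8 of 9 log2 fold changes were below 0, with a median of -0.26, against a median over 7773 genes of -0.0018 and over 538 short-protein genes of -0.27. By edgeR, 0 of 9 members passed, where 0.201% of transcripts did. An unadjusted p under 0.05 was found for 2 of 9 members and for 11.2% of genes. With the replicate number as a block, 252 transcripts passed in place of 70, and still 0 members.
Several marker lists also separated the genotypes in disome-seq. The 7 kidney markers summed to 2444 to 2795 CPM in WT against 3179 to 3506 in KO, and the 6 immune markers to 46.9 to 69.5 against 73.3 to 107. The 5 blood markers went the other way, from 288 to 322 down to 160 to 231. Their part in the members' values was not tested.

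The 2 members with an unadjusted p under 0.05 in disome-seq were Cstb and Cisd1. Cstb had 42.2, 36.4 and 39.9 CPM in WT disome-seq, from 44 to 122 counts, and 27.9, 31.6 and 26.3 CPM in KO, from 27 to 60 counts. Cisd1 had 51.9, 47.9 and 79.8 CPM against 44.6, 39.5 and 43.9. In both genes every KO library was below every WT library, which held for 2 of 9 members and 8.41% of genes. No member was higher in every KO library, where 8.63% of genes were. The log2 fold change was -0.45 ± 0.19 for Cstb and -0.44 ± 0.20 for Cisd1, with adjusted p of 0.369 and 0.417. The value of Cisd1 rests in part on WT library 3, without which it was -0.22 ± 0.18.

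Among the relatives, Cst3 had 43.2, 46.6 and 45.3 CPM in WT and 46.9, 38.9 and 40.9 in KO disome-seq, a log2 fold change of -0.08 ± 0.18. Cisd2 had the largest change in size, -0.57 ± 0.32, on 10 to 38 counts per library, and was -0.20 ± 0.32 without KO library 1. Cisd3 had 0.10 ± 0.32. Vamp8, at 21.8, 19.4 and 26.3 CPM in WT and 20.4, 20.9 and 22.4 in KO, changed by -0.05 ± 0.22 and did not share the no-overlap pattern it had in Ribo-seq. Vamp2 and Vamp3 gave -0.33 ± 0.33 and -0.05 ± 0.39, the latter with 1 count in KO library 3.

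Cycs carried more disome signal than its Ribo-seq level would place it at. It had 207, 196 and 244 CPM in WT disome-seq and 220, 139 and 178 in KO, with a log2 fold change of -0.26 ± 0.17 and an adjusted p of 0.609. Its disome CPM over its Ribo-seq CPM was 2.53 ± 0.258 in WT and 2.35 ± 0.212 in KO (SD, n = 3, libraries of the same number), a ratio above that of 90.0% of 7758 genes in WT. Cstb followed at 1.51 ± 0.151 in WT and 1.37 ± 0.111 in KO. Cst3 lay low at 0.656 ± 0.0180 and 0.622 ± 0.0471, below Cstb in every library. The 2 fragment lengths may be placed differently on copies of Cycs, so its ratio also carries that difference, which was not tested.

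Changes of disome counts relative to Ribo-seq counts on Rpl41 loss ran from -0.35 for Cisd2 to 0.33 for Vamp8 on the log2 scale. In this term 0 of 9 members passed and 0 had an unadjusted p under 0.05, and 0% of transcripts passed by edgeR. DESeq2 called 2 transcripts in all, and 3963 of 67065 had an unadjusted p under 0.05 by edgeR. With libraries of the same number paired between the assays, 204 transcripts and 0 members passed.

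RNA in kidney ran the other way. In RNA-seq, 8 of 9 members had a log2 fold change above 0, with a median of 0.34, equal to that of 984 short-protein genes at 0.34 and above the 0.10 of 13906 coding genes. All KO libraries exceeded all WT libraries for 5 of 9 members, Cstb, Cisd1, Cisd3, Cycs and Vamp8, against 14.2% of genes, and all fell short of them for 1, Vamp2, against 6.67%. By edgeR, 0 of 9 passed, where 0.00992% of transcripts did (7 of 70545), while 6 members and 11881 transcripts had an unadjusted p under 0.05. Without KO libraries 2 and 3, which left KO library 1 alone, 6 of 9 members were above 0. The median of the members was then 0.18, that of short-protein genes 0.18 and that of all genes 0.02. KO library 1 alone lay above all WT libraries for the same 5 members, as for 25% of genes, and below them for Vamp2, as for 17.7%. In bulk tissue, fewer cells of a type and less RNA per cell cannot be told apart.

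Cycs had the largest value. It had 14.3, 17.2 and 8.93 CPM in WT and 17.9, 28.7 and 32.6 in KO kidney RNA-seq, a log2 fold change of 0.97 ± 0.29 with an adjusted p of 0.292. The high KO libraries, 2 and 3, are those with the high mitochondrial rRNA, and WT library 3, the lowest for Cycs, had the lowest mitochondrial rRNA, 0.436%. Without KO libraries 2 and 3 the log2 fold change of Cycs was 0.41 ± 0.36. Without KO library 1, which left only those 2 as the KO group, it was 1.19 ± 0.25 with an adjusted p of 0.0210. In that fit 12466 of 73294 transcripts passed, and it also gave the values without KO library 1 for Cisd3 and Vamp8 below.
Cisd3 had 44.6, 51.2 and 33.9 CPM in WT and 58.0, 87.6 and 85.5 in KO. Its log2 fold change was 0.83 ± 0.21 (adjusted p 0.292), 0.43 ± 0.27 without KO libraries 2 and 3, and 1.00 ± 0.18 without KO library 1 (adjusted p 0.0160).

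Vamp8 had 94.0, 100.2 and 74.6 CPM in WT and 116, 155 and 147 in KO kidney RNA-seq. The log2 fold change was 0.64 ± 0.17 (adjusted p 0.292), 0.38 ± 0.24 without KO libraries 2 and 3, and 0.76 ± 0.16 without KO library 1 (adjusted p 0.0216). Cisd1, at 123, 119 and 103 CPM in WT and 134, 156 and 161 in KO, gave 0.39 ± 0.14, and 0.23 ± 0.22 without those libraries. Cstb had 24.5, 29.0 and 23.6 CPM against 29.0, 34.2 and 34.4, a log2 fold change of 0.34 ± 0.15, or 0.18 ± 0.24 without them. The lowest KO library of Cstb and its highest WT library were both at 29.0 CPM, so the groups touch.

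The remaining relatives were flat or lower. Cst3, Cisd2 and Vamp3 had log2 fold changes of 0.05 ± 0.14, 0.11 ± 0.14 and 0.12 ± 0.14, and on library totals alone all 3 turned to below 0. Without KO libraries 2 and 3 they were -0.01 ± 0.23, 0.02 ± 0.24 and -0.04 ± 0.23. Vamp2 read from its 163-residue transcript had 2.87, 2.48 and 3.74 CPM in WT and 2.12, 1.94 and 1.44 in KO, a log2 fold change of -0.72 ± 0.29, or -0.51 ± 0.41 without those libraries. Its 116-residue transcript, which held 896 to 1448 counts against 59 to 183, gave 0.02 ± 0.14, or 0.13 ± 0.23 without them.

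**Figure D3:**
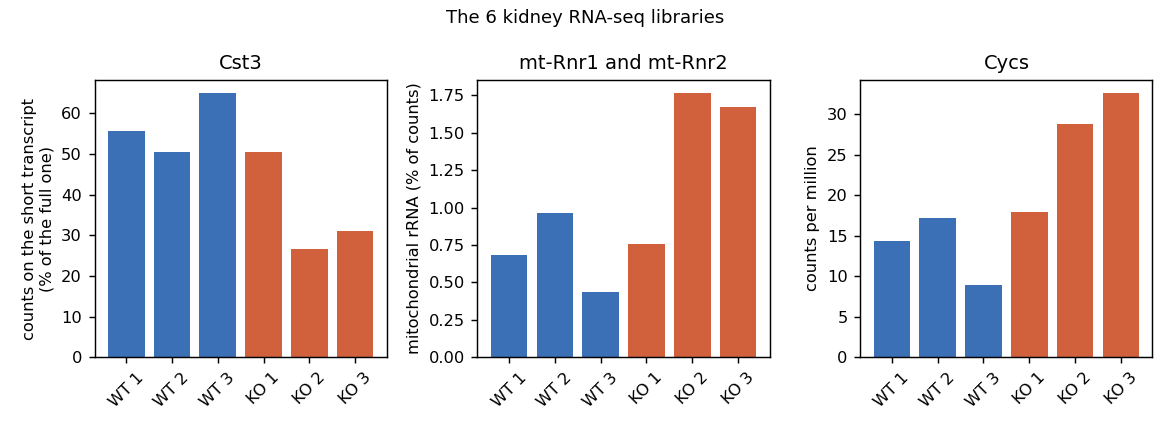
The 6 kidney RNA-seq libraries, WT in blue and KO in orange: counts on the short 5′ transcript of Cst3 as a percentage of those on its full transcript (left), mitochondrial rRNA as a percentage of counts (middle) and Cycs in CPM (right). KO libraries 2 and 3 stand apart in the left and middle panels, at 26.6% and 31.1% and at 1.76% and 1.67%, and have the highest Cycs, 28.7 and 32.6.

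The transcripts of 1 gene did not all give the same RNA value. For Cst3, the full transcript of 860 bases gave 0.05 in kidney RNA-seq and the incomplete 102-residue transcript of 375 bases gave -0.61 ± 0.22, whereas in kidney Ribo-seq both were near 0, at -0.02 and -0.01. The RNA value of the short transcript rests on KO libraries 2 and 3, at 20.0 and 23.9 CPM, whereas KO library 1 had 35.9 and the WT libraries had 38.5 to 42.1. Without those 2 libraries it was -0.17 ± 0.22. The share of counts on the short Cst3 transcript was 68.7% to 72.5% in all 6 kidney Ribo-seq libraries. A noncoding Cycs transcript of 607 bases held 0.664% to 3.96% of the counts of the full one in kidney RNA-seq but 52.9% to 60.2% in RNA-seq of brain and 96.5% to 98.6% in Ribo-seq of kidney. The other coding transcripts of Cisd2, Cisd3 and Vamp8 lay on the same side of 0 as the chosen one in kidney RNA-seq and in kidney Ribo-seq (that of Cisd2 turned to -0.14 ± 0.33 in RNA-seq without KO libraries 2 and 3), and 0 of the 6 other coding transcripts passed the test in any of the 10 contrasts.

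Translational efficiency (TE), the change of Ribo-seq counts relative to RNA-seq counts, combined these opposite values. In kidney 8 of 9 members were below 0 when read from their longest protein, with a median of -0.66 on the log2 scale against -0.12 over 15479 genes and -0.58 over 1184 short-protein genes. By edgeR 0 of 9 passed and 0% of transcripts passed, while 5 members and 17404 of 89685 transcripts had an unadjusted p under 0.05. DESeq2 called 4290 of 71584 transcripts, and among them Vamp8 (adjusted p 0.00763), Cisd1 (0.0172), Cstb (0.0178) and Cisd3 (0.0388). Leaving out KO RNA library 1 in edgeR called 5 members, these and Cycs (adjusted p 0.0220).

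The lowest TE values were -1.12 ± 0.39 for Cycs, -1.0 ± 0.29 for Cisd3 and -0.99 ± 0.23 for Vamp8. Their adjusted p were 0.166, 0.129 and 0.112. For Cycs, the 2 assays did not cover its transcripts alike. Its 607-base transcript held 96.5% to 98.6% of the counts of the full one in kidney Ribo-seq, against 0.664% to 3.96% in kidney RNA-seq. What this contributes to its TE value was not tested. TE values of Cisd1 and Cstb were -0.67 ± 0.18 and -0.66 ± 0.18. Cisd2 was at -0.33 ± 0.19, Vamp3 at -0.26 ± 0.20 and Cst3 at -0.06 ± 0.17. Vamp2, the member above 0, was at 0.51 ± 0.29 from its 163-residue transcript, at -0.14 ± 0.18 from the more abundant 116-residue one and at 0.13 ± 0.17 with counts summed over the gene. Without KO RNA libraries 2 and 3, Cycs moved to -0.55 ± 0.42, Cisd3 to -0.58 ± 0.31, Vamp8 to -0.72 ± 0.26, and Cisd1 and Cstb each to -0.49 ± 0.22, with 0 members passing. Cisd2 was then at -0.22 ± 0.24, Vamp3 at -0.09 ± 0.24, Cst3 at 0.01 ± 0.22 and Vamp2 at 0.31 ± 0.31, and the median of the members was -0.49 against -0.03 over all genes and -0.41 over short-protein genes.

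In brain, for RNA-seq, 8 of 9 members were above 0, from 0.06 for Vamp3 to 0.38 for Cisd3, and Vamp2 was at -0.27 ± 0.21. That value is from the 163-residue transcript of Vamp2, with 2242 to 6242 counts, and the 116-residue one, with 27223 to 43225, gave 0.08 ± 0.17. The median of members was 0.15, as was that of short-protein genes, and it was 0.10 over 15731 genes, 68.9% of which were above 0. By edgeR 0 of 9 passed, where 0.0134% of transcripts did. An unadjusted p under 0.05 was found for 0 members and for 5.0% of genes, and the adjusted p of the members were 0.898 to 0.937. No member had KO libraries all above WT, where 10.2% of genes did, or all below, where 3.25% did. KO libraries 2 and 3 had the fewest transcripts with a count, 106993 and 107005 against 108428 to 110056. Their share on the short Cst3 transcript was 62.8% and 63.9%, against 67.9% to 73.5%. Without KO library 1, 21620 transcripts had an unadjusted p under 0.05 in place of 3087, and Cstb was at 0.32 ± 0.15. The part of these differences in the brain RNA values was not tested.

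Brain Ribo-seq had 8 of 9 members below 0 with a median of -0.24, against -0.22 over 1007 short-protein genes and -0.03 over 14465 genes. By edgeR 0 of 9 passed, where 0.0345% of transcripts did. An unadjusted p under 0.05 was found for 14.5% of genes and for 2 members, Cisd2 and Vamp2. These 2 were also the ones whose KO libraries all lay below WT, against 9.73% of genes, and 0 lay all above, against 9.89%. Cisd2 had 8.97, 9.40 and 10.2 CPM in WT and 8.76, 6.77 and 6.97 in KO, a log2 fold change of -0.36 ± 0.13 with an adjusted p of 0.315. Vamp2 had 83.3, 116 and 85.5 CPM against 82.5, 70.8 and 75.5, or -0.31 ± 0.13 with an adjusted p of 0.368, and -0.14 ± 0.10 without WT library 2. The 5 blood markers separated the genotypes in brain Ribo-seq as well, at 636 to 1841 CPM in WT and 346 to 443 in KO, and their part in these values was not tested.

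Cstb, the gene with the lowest adjusted p in kidney, had 10.0, 13.5 and 9.65 CPM in WT and 10.9, 10.4 and 11.4 in KO brain Ribo-seq, and had a log2 fold change of 0.0039 ± 0.14. Cst3 had 229, 355 and 254 CPM against 280, 204 and 225, a log2 fold change of -0.24 ± 0.16, or -0.03 ± 0.13 without WT library 2. The tissue by genotype term for Cstb in Ribo-seq was -0.34 ± 0.16 (kidney against brain), with an adjusted p of 0.655. In that term 0 of 9 members passed in Ribo-seq, where 0.0767% of transcripts did, and 0 of 9 in RNA-seq, where 0.00108% did. At an unadjusted p under 0.05, it had 0 members and 6765 of 88666 transcripts in Ribo-seq, and 0 members and 7862 of 92865 transcripts in RNA-seq. Brain TE was below 0 for all 9 members, from -0.58 for Cisd3 to -0.03 for Vamp2. In brain TE 0 of 9 passed and 0% of transcripts passed by edgeR, against 18 transcripts by DESeq2. At an unadjusted p under 0.05 there were 1 member, Cisd2, and 4797 of 98861 transcripts by edgeR.

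**Figure D4:**
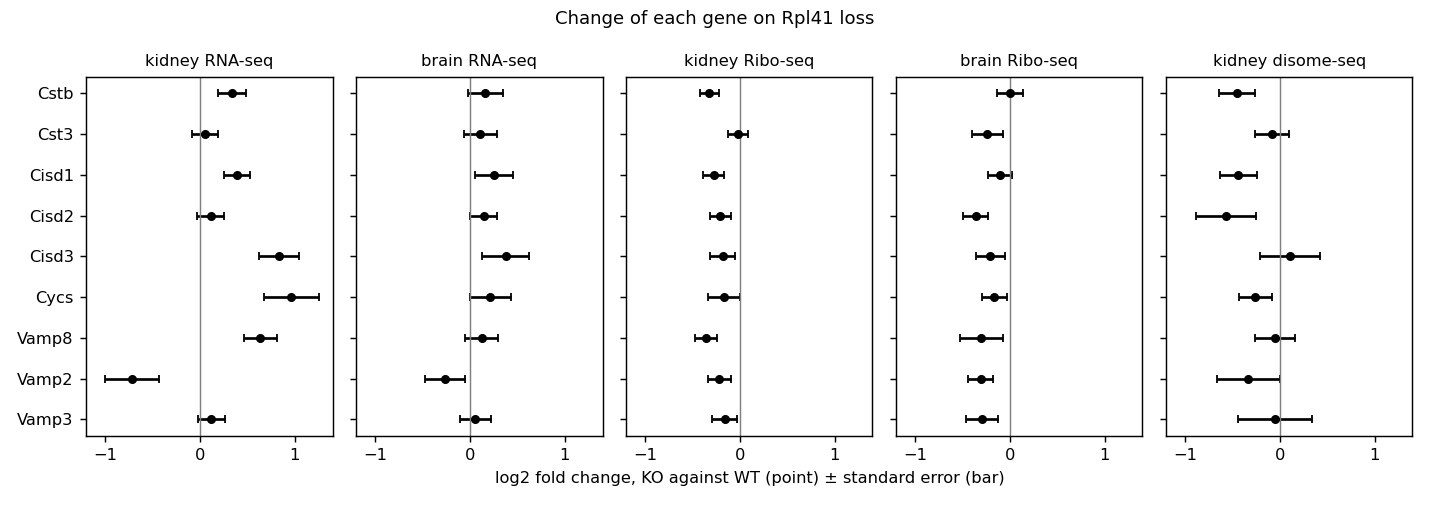
Log2 fold change (KO against WT, points) with its standard error (bars) for the 9 genes, in kidney and brain RNA-seq, kidney and brain Ribo-seq and kidney disome-seq. Points lie mostly right of 0 in RNA-seq and left of 0 in Ribo-seq and disome-seq, with Vamp2 at -0.72 in kidney RNA-seq and Cstb at -0.32 in kidney and 0.0039 in brain Ribo-seq.

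To ask whether a named gene and its relative moved alike, their counts were divided within each library, which removes the scaling. This gave 5 ratios in each of the 5 sets, 25 in all, each tested by a two-sided exact permutation test whose smallest p is 0.1 with 3 against 3 libraries. No ratio could therefore pass 0.05, and 6 of 25 reached the smallest p.

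Cstb relative to Cst3 was the 1 ratio that did so in kidney Ribo-seq. The log2 ratio was -1.43, -1.44 and -1.30 in WT and -1.76, -1.68 and -1.66 in KO, a difference of -0.31 (exact permutation p = 0.1, adjusted 0.417 over 25 ratios). In disome-seq it was -0.03, -0.36 and -0.18 in WT and -0.75, -0.30 and -0.63 in KO, a difference of -0.37 with overlap (exact permutation p = 0.2). In RNA-seq it went up, from -1.50, -1.49 and -1.46 in WT to -1.29, -1.14 and -1.16 in KO, and KO library 1 was also above all WT libraries. With counts summed over all transcripts of each gene, these differences were -0.31 in Ribo-seq, -0.40 in disome-seq and 0.60 in RNA-seq. Brain gave 0.22 in Ribo-seq (exact permutation p = 0.2) and 0.03 in RNA-seq (exact permutation p = 1).

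Read from the longest proteins, the CISD and VAMP ratios did not separate the genotypes in kidney Ribo-seq. Cisd1 to Cisd2 differed by -0.05 (exact permutation p = 0.8), with WT at 1.80 to 1.84 and KO at 1.58 to 1.92, and Cisd1 to Cisd3 by -0.11 (exact permutation p = 0.4). Vamp8 to Vamp2 differed by -0.15 and Vamp8 to Vamp3 by -0.22, each with an exact permutation p of 0.2. Read against the 116-residue Vamp2 transcript, the first was -0.23 and its groups were apart, with WT at 2.02 to 2.20 and KO at 1.82 to 1.95. In disome-seq the differences were 0.13 and -0.66 for the CISD ratios and 0.27 and 0.49 for the VAMP ratios, within the spread of libraries, and the last rests on the single Vamp3 count in KO library 3, since without it the difference was -0.44.

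In kidney RNA-seq all 5 ratios had separate groups and the smallest p. The KO mean minus the WT mean was 0.27 for Cisd1 to Cisd2 and -0.44 for Cisd1 to Cisd3, 0.52 for Vamp8 to Vamp3 and 1.36 for Vamp8 to the 163-residue Vamp2 transcript (exact permutation p = 0.1 each). Without KO libraries 2 and 3 these were 0.21, -0.22, 0.42 and 0.88, and Cstb to Cst3 was 0.19. The ratio of Vamp8 to Vamp2 was 5.03, 5.33 and 4.32 in WT and 5.77, 6.31 and 6.67 in KO. It depended on the transcript of Vamp2, with a difference of 0.62 against the 116-residue one and 0.78 with counts summed per gene. In brain RNA-seq the same 4 ratios differed by 0.11, -0.12, 0.06 and 0.41 (0.12 for the last with counts summed per gene), with overlapping groups, and in brain Ribo-seq by 0.25, 0.12, -0.07 and -0.06.

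**Figure D5:**
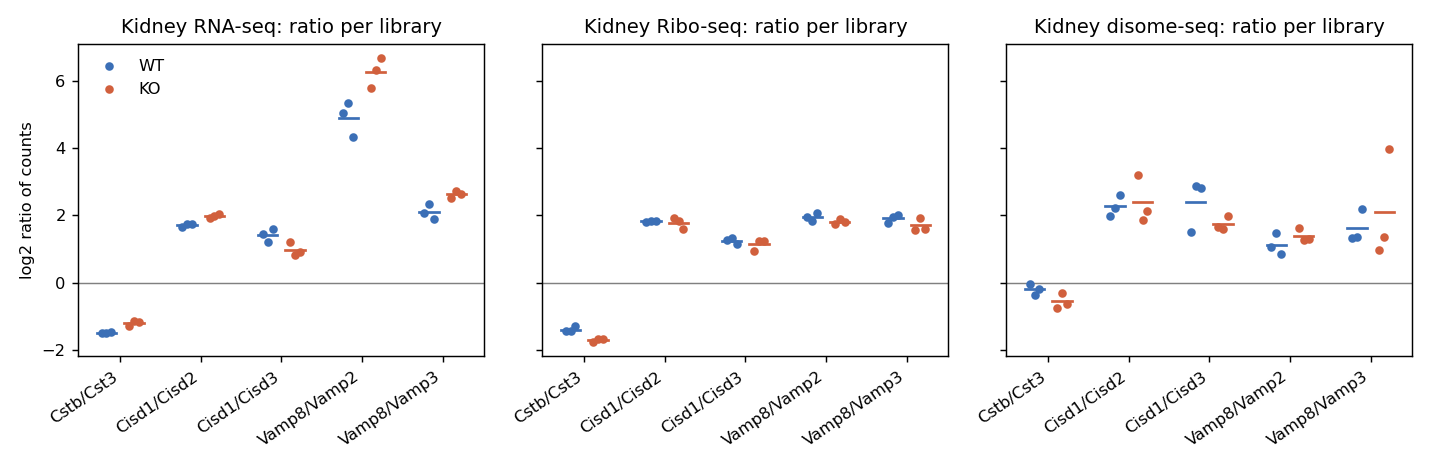
Log2 ratio of the counts of a gene to those of its relative in each kidney library, for RNA-seq, Ribo-seq and disome-seq; points are libraries, lines are means of 3, blue is WT and orange is KO. Of the ratios plotted, which use the longest proteins, Cstb/Cst3 separates the genotypes in Ribo-seq, with WT points at -1.44 to -1.30 and KO points at -1.76 to -1.66, while all 5 ratios separate them in RNA-seq.

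Genes around the members were described from fixed lists, in kidney Ribo-seq first. There 7.76% of transcripts passed, and 1329 of 13454 coding genes read from 1 transcript each, as the listed genes were. Among cysteine cathepsins, the targets of the cystatins, 10 of 11 were tested, 2 rose and 0 fell, with a median log2 fold change of 0.19. The 2 were Ctss, at 177, 93 and 70 counts in WT and 99, 442 and 438 in KO, with 0.81 ± 0.12 (adjusted p 0.00569), and Ctsk at 0.75 ± 0.17 (adjusted p 0.0226). Both are known from macrophage-lineage cells. The 6 immune markers summed to 80.9 to 117 CPM in WT and 141 to 161 in KO kidney Ribo-seq, with 0 of the 6 at 0 in every library of a group, and their part in the cathepsin values was not tested. Of the 8 other cystatins, 0 had enough counts to be tested there.

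Of the 15 genes of iron-sulfur cluster assembly, the route that makes the clusters CISD proteins carry, 4 fell, 0 rose and the median was -0.32. They were Bola3 at -0.70 ± 0.15 (adjusted p 0.0176), Isca1 at -0.63 ± 0.11 (0.00913), Isca2 at -0.48 ± 0.11 (0.0233) and Glrx5 at -0.46 ± 0.12 (0.0420). All 4 encode mitochondrial carrier or transfer proteins that hand clusters on. Among the cytochrome c partners, 12 of 13 were tested, and Bax (-0.52 ± 0.11), which opens the outer mitochondrial membrane, and Diablo (-0.39 ± 0.11), an antagonist of caspase inhibitors released along with cytochrome c, fell with adjusted p of 0.0176 and 0.0414. The list's median was -0.26. Among other SNAREs, 17 of 20 were tested and Vamp1 (-1.07 ± 0.29) and Stx6 (-0.55 ± 0.14) fell, with adjusted p of 0.0407 and 0.0304 and a list median of -0.31. In kidney RNA-seq, brain RNA-seq, brain Ribo-seq, disome-seq and both TE terms, 0 genes of these 5 lists passed. List medians in kidney RNA-seq were 0.42 for iron-sulfur cluster assembly, 0.10 for cytochrome c partners, 0.08 for other SNAREs and -0.10 for cathepsins. Over 984 short-protein genes the median there was 0.34, and over 13906 genes it was 0.10.

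Finally, genes whose libraries vary most like a member were looked up among the 1761 coding genes with a mean of at least 50 counts in every set, by Pearson's r of log2 CPM over 30 libraries after each set's mean was removed. For Cycs these were Uqcrh (r = 0.967), Uqcrq (0.955) and Atp5g3 (0.948), which encode respiratory chain and ATP synthase subunits. For Cisd1 they were Txn1 (0.930), Atpif1 (0.907) and Glo1 (0.906), and for Cstb Atp5g1 (0.893), Ubl5 (0.886) and Spcs1 (0.883). Cstb and Cisd1 had r = 0.819 with each other, and Cstb had 0.551 with its relative Cst3. Vamp8 had too few disome counts to enter. The points share libraries, depth and genotype, so these values are a description.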

How the data were processed

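Kidney and brain of Rpl41 KO and WT mice were measured by RNA-seq, Ribo-seq and, in kidney, disome-seq. The authors trimmed reads with cutadapt and the FASTX Toolkit, removed rRNA reads with STAR, aligned the rest with STAR to GRCm38.p6 and kept reads with several alignments. They deposited read counts per transcript, whole numbers without normalization, in a table whose 30 columns carry the sample titles. Reads shared by transcripts may count in each. Whether counting used the strand is not given for the mouse in the sources used here. A second table, of human transcripts, has 28 columns named with titles of mouse samples, so the 44 HEK293T samples were not analysed here.

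Transcripts were joined to GENCODE M21 (141374 of 142604 matched). KO was compared with WT by edgeR 4.0.16 (filterByExpr, TMM scaling within tissue and assay, quasi-likelihood F-test, Benjamini-Hochberg adjustment over all transcripts tested, threshold 0.05), in place of RiboDiff for TE, and DESeq2 1.42.0 was an alternative. TE, disome relative to Ribo-seq and the tissue difference are interaction terms. For the tissue difference alone, TMM scaling was instead over the libraries of both tissues together. Standard errors come from the log2 fold change divided by the root of the F statistic. Ratios of counts had 0.5 added to each count. Words of 28 bases were searched on both strands of GRCm38.p6. On simulated kidney Ribo-seq counts, 96.4% of transcripts changed by 2 on the log2 scale were recovered, and 54.5% on kidney RNA-seq counts. The share was 94.9% for disome-seq, 37.6% for kidney TE, 57.5% for disome relative to Ribo-seq and 61.4% for the tissue difference in Ribo-seq. Nothing in the labels says how replicates were obtained beyond their numbers, so p-values measure the spread between these libraries.

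WT and KO libraries of the same number deviated together in kidney disome-seq (correlations 0.120, 0.209 and 0.119), and so did kidney assays of the same number, whereas in the other sets at least 1 correlation was under 0.1. Named genes were the 10 members, the genes of 5 lists that passed, and the 3 genes most alike to each of 4 members. Members, lists and markers were chosen with earlier results of these data known. The list of 8 exocrine pancreas markers summed to 11.8 to 160 CPM in WT and 4.54 to 8.21 in KO kidney Ribo-seq, and blood markers to 771 to 987 and 469 to 994. Choroid plexus markers summed to 259 to 347 and 211 to 302 CPM in brain Ribo-seq, and to 297 to 354 in WT against 358 to 430 in KO brain RNA-seq. The part of these lists in the results was not tested.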

Additional observations from a re-analysis of the deposited data

How the results depend on the processing

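With 3 libraries per group, and with disome counts as low as 1 per library for a member, moderate changes could not be told from the spread between libraries, and copies of Cycs and Cisd3 limit what their counts stand for. The number of members passing was 0 in each of the 10 contrasts and under all alternatives but 5. It was 2 in kidney Ribo-seq on library totals alone and 1 with at least 10 counts in every library, and 4 in kidney TE with DESeq2. Leaving out single libraries gave 0 to 3 in kidney RNA-seq and 0 to 5 in kidney TE, the highest being without KO kidney RNA-seq library 1, which leaves the libraries that stand apart as the KO group. DESeq2 gave adjusted p for 4 of 9 members in brain Ribo-seq and 3 of 9 in disome-seq. The cause was not tested. A replicate block changed the number of members passing in no contrast (0 in each), and in kidney RNA-seq, brain RNA-seq, kidney Ribo-seq and brain Ribo-seq, where numbers did not pair the libraries, it passed 7, 11, 4010 and 80 transcripts in place of 7, 12, 5838 and 28.

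Of 1104 recomputed log2 changes, 44 turned sign. On library totals alone, kidney RNA-seq gave -0.11 for Cst3, -0.0496 for Cisd2 and -0.0472 for Vamp3, brain RNA-seq -0.0183 for Vamp3, brain Ribo-seq -0.0181 for Cstb and kidney TE 0.0154 for Cst3. Counts summed per gene gave Cst3 -0.33 in kidney RNA-seq, 0.0313 in kidney Ribo-seq and 0.38 in kidney TE, Vamp3 -0.0225 in brain RNA-seq and Vamp8 0.0124 in disome-seq. Without a low-count filter, Cst3 in kidney Ribo-seq was 0.0167. The replicate block gave -0.0023 for Cstb in brain Ribo-seq, and the replicate block between assays 0.0086 for Vamp2 in brain TE. Without KO kidney RNA-seq libraries 2 and 3 together, chosen after seeing the data, Cst3 was -0.0125 and Vamp3 -0.0385 in kidney RNA-seq, and Cst3 was 0.0115 in kidney TE. Leaving out single libraries gave ranges across 0 for Cst3 (kidney RNA-seq -0.0211 to 0.15, brain RNA-seq -0.0081 to 0.29, kidney Ribo-seq -0.0336 to 0.0112, kidney TE -0.17 to 0.0193), Vamp3 (brain RNA-seq -0.0696 to 0.16, disome-seq -0.52 to 0.28), Cstb and Cisd1 (brain Ribo-seq -0.0804 to 0.15 and -0.19 to 0.0092), Cisd3 and Vamp8 (disome-seq -0.27 to 0.70 and -0.15 to 0.0417) and Vamp2 (brain TE -0.16 to 0.23). For disome relative to Ribo-seq, they were -0.28 to 0.0194 for Cisd1, -0.0976 to 0.92 for Cisd3, -0.28 to 0.17 for Cycs, -0.38 to 0.0321 for Vamp2 and -0.38 to 0.43 for Vamp3. Of 180 recomputed ratio differences, 11 turned sign, all on leaving out 1 library: Cstb to Cst3 in brain RNA-seq (-0.0448 to 0.12), Cisd1 to Cisd2 in kidney Ribo-seq (-0.12 to 0.0488), disome-seq (-0.28 to 0.39) and brain RNA-seq (-0.0122 to 0.23), Vamp8 to Vamp2 in brain Ribo-seq (-0.23 to 0.17), and Vamp8 to Vamp3 in disome-seq (-0.44 to 1.05) and brain Ribo-seq (-0.31 to 0.27).

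Over all transcripts, the number passing ranged over the alternatives from 0 to 12466 for RNA-seq of kidney, 0 to 26 for RNA-seq of brain, 285 to 9936 in kidney Ribo-seq (285 without KO library 3 and 517 without KO library 2), 0 to 1573 in brain Ribo-seq, 13 to 278 in disome-seq, 0 to 16559 in kidney TE, 0 to 18 in brain TE, 0 to 204 for disome relative to Ribo-seq, and 0 to 6444 in RNA-seq and 4 to 437 in Ribo-seq for the tissue difference.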
